A study of Mus musculus with 9 samples.

Results

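AI506816, annotated in RefSeq as a long non-coding RNA, and Trappc11, which encodes a subunit of a vesicle tethering complex, were both brighter on every array of olfactory bulb from mice that inhaled linalyl acetate than on any array from mice that inhaled vehicle. They are the 2 genes named by the selection rule, out of 21367 probe sets that carry a single gene symbol among 22206 in the deposited signal table, and each is measured by 1 probe set (TC0500002046.mm.2 and TC0800002175.mm.2). They were chosen by their log2 signal on the arrays of both doses against that on the vehicle arrays, so the differences from vehicle of both genes are given below as a description with no test. The difference between the doses was not used by the rule and was tested.

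The study measured total RNA of the olfactory bulb from 8-week-old male ICR mice, an outbred strain, on Clariom S arrays with 3 arrays per group. The vehicle group inhaled 1% Tween 80, a surfactant, and the dose groups inhaled 1% or 10% linalyl acetate, a fragrant ester of lavender oil, each by whole-body exposure to diffused aroma for 7 days, with a tail suspension test of behaviour after 30 min of inhalation. Groups follow the sample titles; the free-text descriptions of the vehicle arrays and of 1% replicates 1 and 2 give oral and injected treatments instead, with LPS (lipopolysaccharide) for vehicle replicate 3 and both 1% arrays. The labels do not say whether each array is 1 animal, so the spread between arrays may be partly technical.

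The TRAPP complexes are assemblies of many subunits that tether transport vesicles to the Golgi and switch on Rab GTPases by nucleotide exchange. A shared core combines with TRAPPII subunits or with TRAPPIII subunits, and TRAPPC11 belongs to the TRAPPIII form, which acts in traffic from the endoplasmic reticulum to the Golgi and in the formation of autophagosomes. In humans, loss of TRAPPC11 function causes muscle and neurological disease with defects in protein glycosylation. No role is stated here for AI506816.

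The promoter windows of both genes are shown because they are the regulatory sequence next to the genes that separated from vehicle. Each runs from 250 bases before to 50 bases after the RefSeq start on build GRCm38.p6, written 5′ to 3′ on the gene's strand, with matches to the GC box GGGCGG and the CCAAT box CCAAT on either strand in capitals. The AI506816 window lies at chr5:23712618-23712917 on the minus strand, and that of Trappc11 at chr8:47533421-47533720 on the minus strand.
AI506816: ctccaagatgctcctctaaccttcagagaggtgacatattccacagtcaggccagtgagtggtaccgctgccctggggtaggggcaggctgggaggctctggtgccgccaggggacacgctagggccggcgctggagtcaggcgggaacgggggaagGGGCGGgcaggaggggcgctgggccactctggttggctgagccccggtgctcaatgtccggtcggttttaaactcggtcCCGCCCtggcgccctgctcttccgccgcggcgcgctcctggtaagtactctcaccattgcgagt
Trappc11: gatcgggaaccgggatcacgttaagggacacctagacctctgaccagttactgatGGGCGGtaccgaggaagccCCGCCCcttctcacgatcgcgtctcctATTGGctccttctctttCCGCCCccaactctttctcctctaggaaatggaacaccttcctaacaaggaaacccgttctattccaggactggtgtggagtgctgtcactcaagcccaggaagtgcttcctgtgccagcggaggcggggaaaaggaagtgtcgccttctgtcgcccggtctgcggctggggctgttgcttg
GC content was 66.3% in the AI506816 window and 58.0% in the Trappc11 window, against a median of 52.7% over 32851 RefSeq promoter windows of the same length. The GC box occurred 2 times in the AI506816 window and 3 times in that of Trappc11, and 35.7% of all windows hold at least 1. The CCAAT box occurred 1 time in the Trappc11 window and 0 times in that of AI506816, with 37.4% of all windows holding it. The XBP1 core ACGTG, which also lies inside the E-box CACGTG, occurred 1 time in the Trappc11 window, in lower case near its 5′ end, and 0 times in that of AI506816; 19.6% of all windows hold it. On both strands, neither window held the CRE string CGTCA (20.8% of all windows) or the AP-1 site TGANTCA (7.81%). The E-box CACGTG (7.15%) and the ETS string CCGGAA (14.9%) were also absent from both. For CRE and ETS sites only these exact strings were searched, so other forms were not counted. Both printed windows hold GGAA outside the string CCGGAA. The GC box was the 1 motif of these 7 that both windows held, and a match describes letters, not a bound site.

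AI506816 had log2 signals of 8.64, 7.30 and 8.36 in vehicle replicates 1, 2 and 3, of 9.81, 9.47 and 9.53 at 1%, and of 8.91, 9.51 and 9.26 at 10%. Every dose array lay above every vehicle array, the closest pair being 10% replicate 1 and vehicle replicate 1, 0.27 log2 units apart. The group means were 8.10 ± 0.71 (SD, n = 3) for vehicle, 9.60 ± 0.18 for 1% and 9.23 ± 0.30 for 10%. The mean was higher than vehicle by 1.50 ± 0.31 (SE) log2 units at 1%, a 2.84-fold difference, and by 1.13 ± 0.31 at 10%, 2.18-fold. Vehicle replicate 2 was the lowest array by a wide margin, and the vehicle arrays spanned 1.34 log2 units against 0.90 over the dose arrays. Without that array the difference was 1.10 at 1% and 0.73 at 10%. The authors' deposited table gives AI506816 a fold change of 2.19 at 1% and 1.81 at 10%, from group averages of 9.51, 9.24 and, for vehicle, 8.38 that are not the arithmetic means of the arrays.

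Trappc11 had log2 signals of 10.40, 10.55 and 9.98 in the vehicle arrays, of 11.47, 11.04 and 11.29 at 1%, and of 11.42, 11.17 and 10.97 at 10%. The groups were again separated, with 0.42 log2 units between 10% replicate 3, the lowest dose array, and vehicle replicate 2, the highest vehicle array. Means were 10.31 ± 0.30 (SD, n = 3) for vehicle, 11.27 ± 0.22 for 1% and 11.19 ± 0.23 for 10%. Relative to vehicle Trappc11 was higher by 0.96 ± 0.20 (SE) log2 units at 1%, 1.94-fold, and by 0.88 ± 0.20 at 10%, 1.84-fold. Its vehicle arrays spanned 0.57 log2 units and the arrays of both doses together 0.50. Those ranges cover unequal numbers of arrays, and by SD the spread within vehicle was somewhat wider than within either dose. The authors' deposited table gives Trappc11 a fold change of 1.87 at 1% and 1.76 at 10%.

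**Figure D1:**
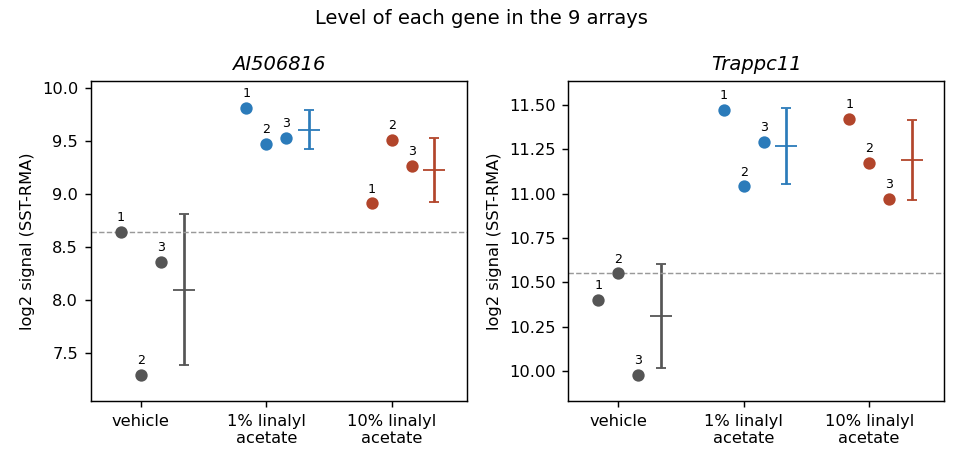
Log2 signal of AI506816 (left) and Trappc11 (right) on each array, with the replicate number above each point, and the group mean ± SD (n = 3) as a bar beside the points; the dashed line marks the highest vehicle array. All 6 dose arrays lie above the line for both genes, by 0.27 log2 units at the closest for AI506816 and by 0.42 for Trappc11.

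The difference between the doses did not pass the test for either gene. AI506816 was lower at 10% than at 1% by 0.38 ± 0.31 (SE) log2 units, with a 95% interval of the difference from -1.05 to 0.30. The adjusted p from limma was 0.999, and the two-sided exact permutation test of 3 against 3 arrays gave p = 0.2, where 0.1 is the smallest it can give. That SE holds the wide spread of the vehicle arrays: with only the 2 dose groups in the fit it was 0.204, and without vehicle replicate 2 it was 0.202, with unadjusted p of 0.0986 and 0.0918 and adjusted p of 0.998 and 0.999 from limma. The difference of 0.38 was larger than the SD of either dose group, 0.18 and 0.30. For Trappc11 the difference was -0.08 ± 0.20 log2 units, with an interval from -0.53 to 0.37, an adjusted p of 0.999 from limma and an exact permutation p of 0.7. Leaving out 1% replicate 1 or 10% replicate 3 moved the Trappc11 difference to the other side of 0, at 0.02 and 0.03.

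The separation that the rule used was shared by 230 of 21367 probe sets (1.08%), and 195 (0.913%) had all dose arrays below all vehicle arrays. Among the 230 the gap ran from 0.01 to 0.47 log2 units with a median of 0.065. At the edge of the rule, 106 probe sets had a gap of at most 0.05, and a further 251 missed it by less than 0.05. Trappc11 had 1 of the 4 gaps of at least 0.42, and AI506816 1 of the 14 gaps of at least 0.27. AI506816 and Trappc11 were the 2 of the 230 whose differences at both doses reached those of Trappc11, against medians over the 230 of 0.37 at 1% and 0.41 at 10%. The next in order of the smaller difference, named here after its values were seen, was the histone gene Hist1h4c. It was higher by 1.86 ± 0.33 (SE) at 1% and by 0.87 ± 0.33 at 10%. Over all probe sets, AI506816 ranked 13th by difference at 1% and 21st at 10%, and Trappc11 ranked 42nd and 47th.

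**Figure D2:**
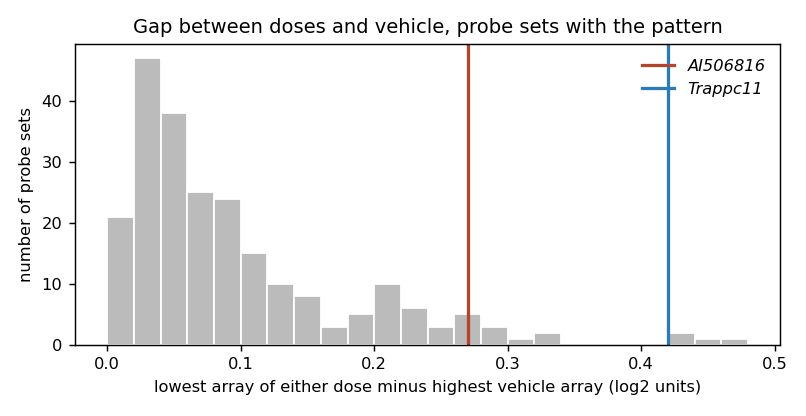
Number of probe sets (vertical axis) by the gap in log2 units between the lowest array of either dose and the highest vehicle array (horizontal axis), for the 230 probe sets with a gap above 0; vertical lines mark AI506816 at 0.27 and Trappc11 at 0.42. Most gaps are small, with a median of 0.065, and both genes lie in the right tail.

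Among genes at or above the median signal and with an SD of at least 0.2 over the arrays, 80 had the separation, 11 of them with predicted or clone-derived names such as AI506816. The widest gaps among the others belonged to Deaf1, a transcription factor, with log2 signals of 8.41, 8.60 and 8.15 in vehicle, 9.17, 9.15 and 9.02 at 1% and 9.12, 9.23 and 9.03 at 10%, and to Trappc11 itself. Deaf1 equalled Trappc11 in its gap of 0.42 with smaller differences, 0.73 at 1% and 0.74 at 10%, and a tighter spread within groups. Next came Nfic, a nuclear factor I transcription factor, with a gap of 0.33, and Hs3st2, a heparan sulfate sulfotransferase, with 0.30. Nr1d1, the nuclear receptor of the circadian clock also called Rev-erb alpha, had a gap of 0.29 and differences of 0.71 and 0.59. Slc7a5, the large neutral amino acid transporter, had a gap of 0.27, equal to that of AI506816, and smaller differences, 0.76 at 1% and 0.63 at 10%. The list was completed by Ssh3, a cofilin phosphatase, with 0.26, the postsynaptic scaffold gene Dlgap2 with 0.24, Iffo2 with 0.22 and Shroom1 with 0.20. These genes were ranked by the same separation that chose AI506816 and Trappc11, so their order is a description.

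In the fit across all genes nothing passed the adjustment: 0 of 21367 probe sets (0%) had a limma adjusted p under 0.05 in any of the 3 comparisons, and the lowest adjusted p was 0.998 for each dose against vehicle and 0.999 between doses. At an unadjusted p under 0.05 limma called 731 at 1% against vehicle (3.42%), of which 375 were higher (1.76%) and 356 lower (1.67%). It called 807 at 10% against vehicle (3.78%), with 441 higher (2.06%) and 366 lower (1.71%), and 642 between doses (3%), with 367 higher (1.72%) and 275 lower (1.29%) at 10%. The median difference over all genes was 0.003 at 1% and 0.01 at 10%. Without vehicle replicate 3, which had the lowest Trappc11 signal, 7 probe sets passed the adjustment at 1% and 12 at 10%, and Trappc11 was higher by 0.79 and 0.71.

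Of the other TRAPP subunits, 13 of 14 were measured and Trappc14 was not matched to the array; none of the 13 passed the adjustment and their differences centred near those of all genes. The median difference of the 13 was -0.03 at 1%, 0.06 at 10% and 0.08 between doses. At an unadjusted p under 0.05, limma called 0 of 13 at 1% against vehicle, where 3.42% of all probe sets were called. It called 1 of 13 at 10% (background 3.78%) and 1 of 13 between doses (background 3%). The largest difference from vehicle among them was -0.50 for Trappc1 at 10%, and the largest positive one was 0.34 for Trappc6a at 10%, against 0.88 for Trappc11 at that dose.

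Within TRAPPIII, whose other subunits share a complex with TRAPPC11, the differences from vehicle of the 3 other subunits ran from -0.36 to 0.09. Trappc8, which marks the TRAPPIII form, differed by -0.03 ± 0.16 (SE) log2 units at 1% and 0.09 ± 0.16 at 10%. Trappc12 differed by -0.23 ± 0.18 and 0.04 ± 0.18, and Trappc13 by -0.35 ± 0.23 and -0.36 ± 0.23. Trappc13 had log2 signals of 12.12, 12.14 and 12.44 in vehicle, 12.08, 11.96 and 11.62 at 1%, and 11.69, 11.55 and 12.38 at 10%, and 10% replicate 3 lay among the vehicle arrays. Differences from vehicle that miss the threshold do not show that these subunits were the same in all groups.

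Among the TRAPPII subunits, Trappc9 had signals of 10.68, 10.64 and 10.71 in vehicle, 10.73, 10.78 and 10.93 at 1%, and 10.98, 11.13 and 10.80 at 10%. It was the 1 subunit besides Trappc11 with all dose arrays above all vehicle arrays, by a gap of 0.02, a separation that 1.08% of all probe sets had, with differences of 0.14 ± 0.16 and 0.29 ± 0.16 (adjusted p 0.998 from limma for both). Trappc10 differed by 0.00 ± 0.16 at 1% and -0.19 ± 0.16 at 10%.

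In the core, Trappc1 went the other way from Trappc11, with signals of 10.38, 10.42 and 10.55 in vehicle, 10.29, 10.16 and 9.89 at 1%, and 9.79, 9.88 and 10.18 at 10%. All 6 dose arrays lay below all vehicle arrays, as they did for 0.913% of all probe sets, and the difference was -0.34 ± 0.18 at 1% and -0.50 ± 0.18 at 10%, with an unadjusted p of 0.0152 and an adjusted p of 0.998 from limma at 10%. Trappc2 was the subunit called between doses at the unadjusted threshold, higher at 10% by 0.35 ± 0.15 log2 units (unadjusted p 0.0418, adjusted p 0.999 from limma). No subunit was called between doses in 9 of 19 alternative fits, and Trappc1 was not called at 10% without 10% replicate 1. The remaining core subunits, Trappc2l, Trappc3, Trappc4, Trappc5, Trappc6a and Trappc6b, differed from vehicle by -0.17 to 0.34 at either dose.

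**Figure D3:**
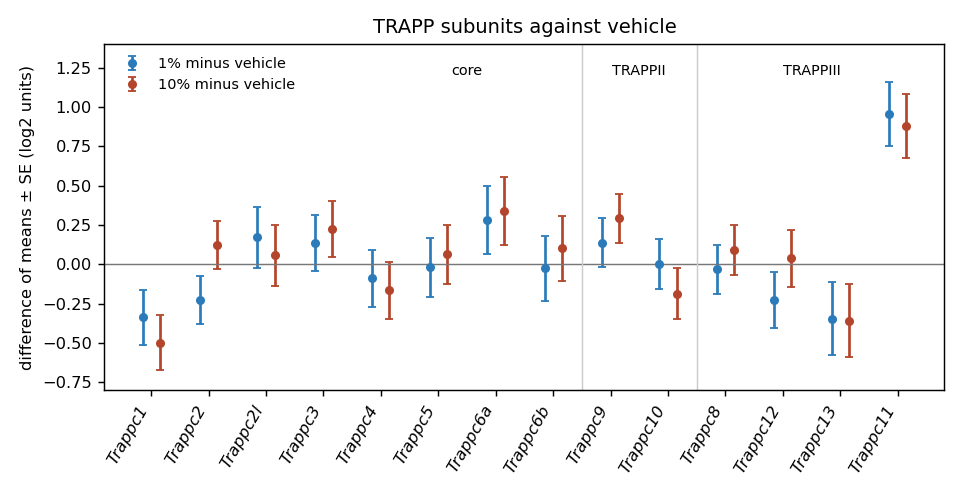
Difference of group means from vehicle ± SE in log2 units for 13 TRAPP subunits and Trappc11 (horizontal axis, grouped as core, TRAPPII and TRAPPIII), at 1% (blue) and 10% (red), each from 3 arrays per group. Trappc11, at 0.96 and 0.88, stands above the others, which run from -0.50 to 0.34.

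The Rab GTPases on which TRAPP complexes act were split. Rab1b, a GTPase of traffic between the endoplasmic reticulum and the Golgi, had signals of 8.15, 7.95 and 7.68 in vehicle, 8.50, 8.48 and 8.42 at 1%, and 8.21, 8.57 and 8.19 at 10%. All dose arrays lay above all vehicle arrays, by a gap of 0.04, a separation that 1.08% of all probe sets had. Rab1b was higher by 0.54 ± 0.18 at 1% and 0.40 ± 0.18 at 10% (unadjusted p 0.0114 and 0.0481, adjusted p 0.998 from limma for both). Its close relative Rab1a differed the other way, by -0.29 ± 0.17 and -0.15 ± 0.17, and Rab11a by -0.39 ± 0.18 and -0.10 ± 0.18. Rab18 differed by 0.00 and -0.03, and Rab11b by -0.17 and -0.28. Rab1b was thus 1 of 5 called at each dose, on an unadjusted p under 0.05, against 3.42% and 3.78% of all probe sets. A count of 1 in so short a list is not a result about the list.

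Other lists of the secretory pathway held no adjusted call in any comparison. Their counts at an unadjusted p under 0.05 stand against 3.42% of all probe sets at 1%, 3.78% at 10% and 3% between doses, and with lists this short a count of 0 to 3 is not a result about the list. None of 17 genes of the COPII coat, which forms vesicles at the endoplasmic reticulum, had an unadjusted p under 0.05 in limma, and their median difference was 0.06 at 1% and -0.12 at 10%. Of 25 measured genes of other tethering complexes (Cog8 and Vps51 were not matched), 2 of the exocyst were higher at the unadjusted threshold at 1%, Exoc7 by 0.45 ± 0.18 and Exoc6 by 0.40 ± 0.17, and 1 of the COG complex, Cog6, was lower at 10%, by -0.44 ± 0.17. Exoc1 was the 1 tether gene called between doses, higher at 10% than at 1% by 0.39 ± 0.18. For 28 genes of autophagosome formation the count was 0 in all 3 comparisons, with median differences of 0.04 and 0.03. Among 33 measured genes of N-glycan synthesis, a pathway disturbed when TRAPPC11 is lost in humans, Alg8 was higher by 0.52 ± 0.20 at 1% and 0.49 ± 0.20 at 10%, Alg14 was lower at 1% by -0.70 ± 0.28, and at 10% Alg5 was higher by 0.58 ± 0.24 and Dolpp1 lower by -0.57 ± 0.23, all at the unadjusted threshold. In the unfolded protein response, 20 genes (21 probe sets) were measured and 0 were called at 1%. The median difference was 0.01 at 1%, -0.14 at 10% and -0.29 between doses. Of the 21 probe sets, 19 were lower at 10% than at 1% and 2 higher, where 50.5% of all probe sets were higher. The probe sets share the same arrays, so the count does not hold 21 independent results. The list mean was 11.10, 11.64 and 11.31 at 1%, and 10.97, 11.07 and 11.26 at 10%. The array of 1% replicate 2 was the highest of its group for 18 of the 21. Xbp1, a transcription factor of the response, and the chaperone Calr had lower signals at 10% at the unadjusted threshold, by -0.85 ± 0.32 and -0.61 ± 0.27. Xbp1 was also the 1 call of its list between doses, at -0.70 ± 0.32.

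Over the 9 arrays AI506816 and Trappc11 had a Pearson r of 0.695 and a Spearman rho of 0.783. That likeness holds the step between vehicle and dose that the rule fixed. Taken as deviations from group means, which remove the step, the same 9 arrays gave r = -0.36 and rho = -0.40, and over the 6 dose arrays alone r was 0.097 and rho 0.429. In vehicle the low array differed between the genes. AI506816 was farthest below its group mean in vehicle replicate 2, by -0.80, where Trappc11 was 0.24 above its own. Trappc11 was farthest below in vehicle replicate 3, by -0.33, where AI506816 was 0.26 above. At 1% both genes were lowest in replicate 2, with deviations of -0.13 for AI506816 and -0.23 for Trappc11. At 10% AI506816 was lowest in replicate 1 and Trappc11 in replicate 3.

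For each gene, the 6 named genes with the highest and the lowest r over the 9 arrays were found among 7502 genes at or above the median signal with an SD of at least 0.2. These r hold the step between vehicle and dose that the rule used, so their order is a description. Highest for AI506816 was Exoc6, a subunit of the exocyst, with r = 0.891, followed by Rnf40, a ubiquitin ligase for histone H2B, with 0.856. Abcb10, a mitochondrial transporter, and Rimbp2, which organises presynaptic release sites, each had 0.851, Ssh3 had 0.848 and the actin regulator Wipf3 0.833. Exoc6 had signals of 8.98, 8.76 and 9.19 in vehicle, 9.39, 9.37 and 9.37 at 1%, and 9.01, 9.40 and 9.17 at 10%. Like AI506816 it was lowest in vehicle replicate 2 and, among the dose arrays, in 10% replicate 1, and its dose arrays overlapped with vehicle. No gene reached r of 0.9 with AI506816, in either direction.

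The lowest r with AI506816 belonged to Ptchd2 at -0.891, the histone gene Hist1h2bf at -0.876, Nck1, an adaptor of tyrosine kinase signalling, at -0.857, Ccpg1os at -0.851, Fosl2 at -0.847 and Mrps10, of the mitochondrial ribosome, at -0.830. Fosl2, an AP-1 subunit that neuronal activity induces, had signals of 8.81, 9.88 and 8.16 in vehicle, 7.69, 8.21 and 7.76 at 1%, and 7.66, 8.09 and 7.95 at 10%. It was highest in vehicle replicate 2, the array in which AI506816 was lowest. The list of 16 immediate early genes (18 probe sets), to which Fosl2 belongs, had mean log2 signals of 10.43, 10.72 and 8.12 in vehicle, 8.08, 8.73 and 7.75 at 1%, and 7.45, 8.07 and 7.70 at 10%. Without vehicle replicate 2 the r of Fosl2 with AI506816 weakened to -0.509, and those of the other genes with the lowest r to between -0.74 and -0.66. Among the genes with the highest r, Ssh3 stayed at 0.848. The others fell to between 0.673 for Abcb10 and 0.773 for Exoc6. In deviations from group means the r of Fosl2 was -0.653, and without vehicle replicate 2 it was 0.405. That of Mrps10 went from -0.327 to 0.512. The other genes with the lowest r stayed negative, from -0.753 for Ptchd2 to -0.229 for Ccpg1os. Among those with the highest r, Rimbp2 went from 0.437 to -0.295. The rest stayed positive, from 0.083 for Rnf40 to 0.907 for Wipf3.

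Trappc11 was most like Dlgap2, with r = 0.958, and Deaf1, with 0.945. Next were Drg1, a translation-linked GTPase, with 0.902, Bin1, which bends membranes, and Zfyve19, a phosphoinositide-binding protein of cell division, with 0.892 each, and Ap4e1 with 0.890. Ap4e1 encodes a subunit of the AP-4 adaptor, which sorts cargo at the trans-Golgi network. Dlgap2 had signals of 11.16, 11.13 and 11.00 in vehicle, 11.51, 11.52 and 11.57 at 1%, and 11.56, 11.53 and 11.40 at 10%, and its lowest array in vehicle and at 10% was the same as that of Trappc11. The dose arrays of Bin1 overlapped with vehicle, while those of the other 5 lay above it throughout, a separation that 1.08% of all probe sets had. These genes were picked by r with a gene chosen for that separation, so the count is not a result about them. In all, 7 of the 7502 genes had r of at least 0.9 with Trappc11 and 3 had r of -0.9 or less. These values over the 9 arrays hold the step between vehicle and dose. In deviations from group means the r of Dlgap2 was 0.747 and that of Deaf1 0.671.

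Lowest against Trappc11 were Ppp2r2a, a regulatory subunit of protein phosphatase PP2A, with -0.909, Rsph3a with -0.905, Sdcbp, which encodes syntenin, with -0.904, Rassf2 with -0.898, and Trim59 and Tbc1d25, a Rab GTPase-activating protein, with -0.879 each. Sdcbp had signals of 14.29, 14.37 and 14.27 in vehicle, 13.62, 13.97 and 13.61 at 1%, and 13.62, 13.70 and 14.05 at 10%, so all dose arrays lay below all vehicle arrays. Without vehicle replicate 3 the r of Dlgap2 was 0.929, that of Deaf1 0.893 and that of Sdcbp -0.958. In deviations from group means without that array they were 0.542, 0.32 and -0.845.

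**Figure D4:**
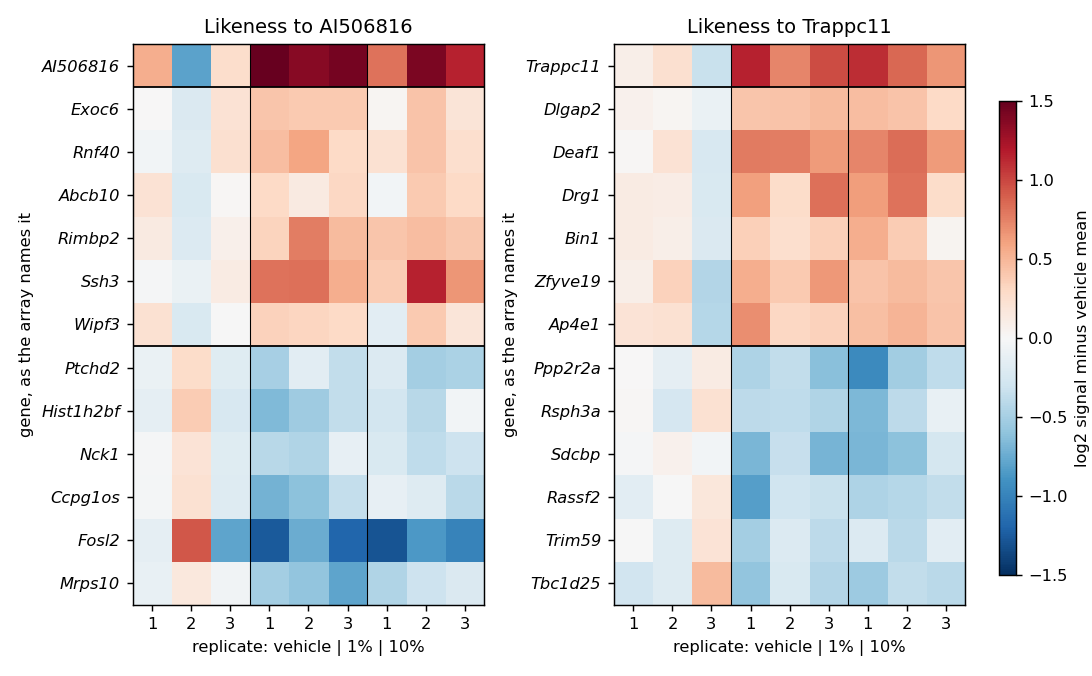
Log2 signal minus the vehicle mean (colour, red above and blue below) on the 9 arrays (columns, replicates 1 to 3 of vehicle, 1% and 10%) for AI506816 (left) and Trappc11 (right), each above the 6 named genes with the highest and the 6 with the lowest r to it. AI506816 is lowest in vehicle replicate 2, where Fosl2 is highest, and Trappc11 is lowest in vehicle replicate 3.

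With the step between groups removed, other genes were closest. For AI506816 the highest r of deviations were those of Cbr2, a carbonyl reductase, at 0.984, Smyd3, a lysine methyltransferase, at 0.960, Papss2, which makes the sulfate donor PAPS, at 0.942, Cyp2g1, a cytochrome P450 of the olfactory mucosa, at 0.927, Ano2, the chloride channel of olfactory sensory cilia, at 0.912, and Fam110b at 0.911. Cyp2g1 had signals of 11.03, 5.66 and 10.00 in vehicle, 8.57, 5.97 and 7.58 at 1%, and 8.29, 9.54 and 7.77 at 10%, and was lowest in vehicle replicate 2. Smyd3 read 9.85, 7.77 and 9.40 in vehicle and 8.75 to 9.26 on the dose arrays, with the same array lowest. Without that array the values were 0.934 for Cbr2, 0.846 for Smyd3, 0.843 for Papss2, 0.709 for Cyp2g1, 0.603 for Ano2 and 0.694 for Fam110b, on 8 arrays.

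Olfactory sensory neurons project from the nasal lining to the bulb. A list of 10 of their marker genes had mean log2 signals of 8.72, 8.20 and 8.25 in vehicle, 7.96, 7.70 and 8.26 at 1%, and 8.27, 8.61 and 8.74 at 10%. The counts and r below include dim genes: Rtp1, Rtp2, Cnga4 and Cnga2 had group means of at most 5.57, and the dimmest gene averaged 3.99. They also include Gnal, which was highest of its group in vehicle replicate 3 (12.59), 1% replicate 2 (11.79) and 10% replicate 2 (12.27). Vehicle replicate 1 was the highest of its group for 8 of the 10 and vehicle replicate 2 the lowest for 6, and 10% replicate 1 was the lowest of its group for 8, as for AI506816. The order differed elsewhere: 1% replicate 3 and 10% replicate 3 were each the highest of their group for 6 of the 10, whereas AI506816 was highest in 1% replicate 1 and 10% replicate 2. The deviations of AI506816 and of this list had r = 0.562 over the 9 arrays. The part of these markers in the AI506816 signal was not tested. RNA from whole tissue does not show which cells, parts of cells or adjoining tissue the marker signal came from.

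For Trappc11 the highest r of deviations were those of Uckl1, a uridine and cytidine kinase, at 0.981, the sodium channel gene Scn3a at 0.976, the nucleoporin gene Nup107 at 0.974, Cpne6, a calcium-binding copine, at 0.967, Disp1 at 0.963 and Crhr1, the receptor of corticotropin-releasing hormone, at 0.962. Scn3a had signals of 12.02, 12.08 and 11.61 in vehicle, 12.15, 11.63 and 11.93 at 1%, and 12.14, 11.95 and 11.61 at 10%, so its group means differed from each other by at most 0.003 while its arrays moved with those of Trappc11. Without vehicle replicate 3 these values were 0.933 to 0.995. At r of deviations of at least 0.9, Trappc11 had 29 of 7502 genes (0.387%) and AI506816 had 10 (0.133%).

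The tissue label was checked against markers of the bulb, and 3 arrays stood apart. The list of 16 bulb marker genes, among them Th of dopaminergic periglomerular cells and Eomes of mitral and tufted cells, had mean log2 signals of 12.30, 12.56 and 12.36 in vehicle replicate 3, 1% replicate 2 and 10% replicate 2, and of 12.82 to 13.17 elsewhere. The list of 16 cortex and anterior olfactory area markers (17 probe sets, of which the dimmest averaged 6.27) had 9.93, 9.96 and 10.00 on those arrays and 8.79 to 9.22 elsewhere. Those arrays were the highest of their groups for 14, 16 and 11 of the 17.

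Trappc11 was lowest of its group in the first and second of these arrays, at 9.98 and 11.04, and in the middle of its group in the third, at 11.17. Its deviations had r = -0.692 with the cortex list and 0.597 with the bulb list, and those of AI506816 had 0.229 and -0.388. Without these arrays, leaving 2 per group, Trappc11 was higher than vehicle by 0.91 at 1% and 0.72 at 10%, and AI506816 by 1.70 and 1.12. Among the gene lists, the unfolded protein response had the strongest r of deviations with Trappc11, in the opposite direction, at -0.877. It is named here because it was the extreme of the lists. Vehicle replicate 3 was the highest of its group for 14 of its 21 probe sets and 1% replicate 2 for 18. Those are the first and second of these arrays, and 10% replicate 2 was highest for 6. A link between Trappc11 and the response was not tested.

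Of 9 measured neighbours on the chromosome, 0 had all dose arrays above all vehicle arrays, a separation that 1.08% of all probe sets had, so nothing about the neighbours is read from that count. RefSeq on GRCm38.p6 was used for the order of genes, and of the 5 on each side of AI506816 the array measured 6. Srpk2, the adjacent gene on the side of lower coordinates and a kinase of splicing factors, differed by -0.05 ± 0.16 (SE) log2 units at 1% and -0.10 ± 0.16 at 10%. Pus7, a pseudouridine synthase on the other side, differed by -0.40 ± 0.19 and -0.04 ± 0.19. Kmt2e, a chromatin regulator, 5031425E22Rik and Gm17434 differed by -0.51 to 0.13. In deviations from group means, the r of the measured neighbours with AI506816 ran from -0.667 for Srpk2 to 0.869 for Gm17434, a dim probe set with signals of at most 5.17. The predicted gene Gm42226 and the small nucleolar RNA Gm50451, which start within the AI506816 gene, were not measured.

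Rint1, which encodes a protein that tethers Golgi vesicles at the endoplasmic reticulum, had log2 signals of 11.04, 11.31 and 11.01 in vehicle, 11.26, 11.59 and 11.41 at 1%, and 11.32, 14.44 and 11.36 at 10%. Its mean was higher by 0.30 ± 0.64 at 1% and 1.25 ± 0.64 at 10%, and the second of these rests on 10% replicate 2. AI506816 was also highest of its group in that array, at 9.51.

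Of the 5 genes on each side of Trappc11, 3 were measured. Rwdd4a is transcribed away from Trappc11 on the opposite strand from a start 175 bases away, and its promoter window shares 274 of 300 bases with that printed above. Its signals were 9.19, 9.79 and 9.14 in vehicle, 9.35, 9.84 and 9.49 at 1%, and 9.37, 9.76 and 9.61 at 10%, with replicate 2 highest in every group and the groups overlapping. Rwdd4a differed from vehicle by 0.19 ± 0.22 and 0.21 ± 0.22, and its r with Trappc11 was 0.333 over the 9 arrays and -0.014 in deviations. Stox2 differed by 0.09 ± 0.17 and 0.07 ± 0.17, and Ing2, a reader of histone methylation, by 0.09 ± 0.23 and 0.09 ± 0.23. Their r with Trappc11 in deviations was 0.7 for Stox2 and -0.184 for Ing2. At an unadjusted p under 0.05, limma called 0 of these 9 neighbours at 1% and 0 at 10%, against 3.42% and 3.78% of all probe sets.

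**Figure D5:**
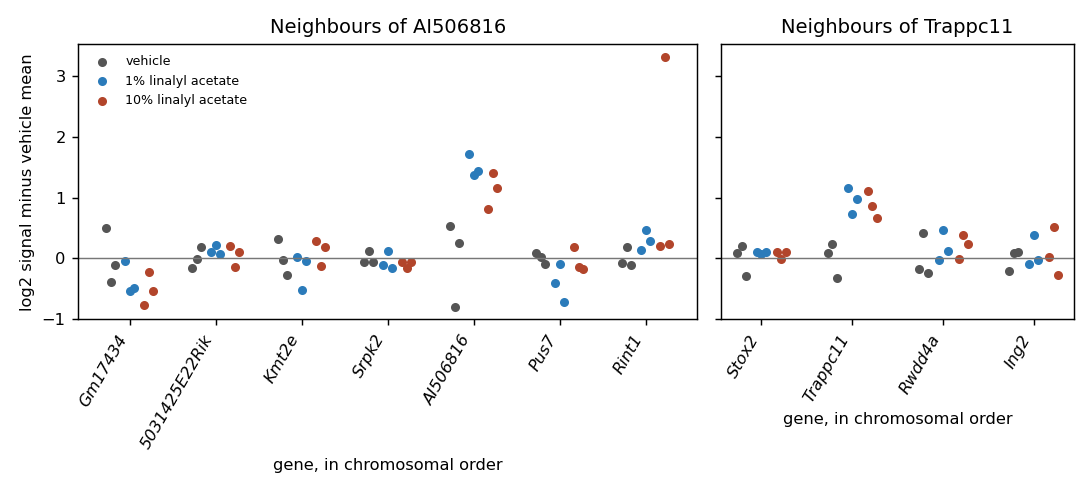
Log2 signal minus the vehicle mean of each array (points) for AI506816 and its 6 measured neighbours (left) and Trappc11 and its 3 measured neighbours (right), in chromosomal order, coloured by group. The dose arrays of AI506816 and Trappc11 lie above their vehicle arrays, those of the neighbours overlap with vehicle or lie below it in part, and 10% replicate 2 of Rint1 stands at 14.44 in log2 signal.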

How the data were processed

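The authors normalized the Clariom S scans by SST-RMA in Transcriptome Analysis Console 4, per the submitters' processing notes, and deposited log2 signals for 22206 probe sets. No source used here names their genome build. A signed fold change score, log2 group averages and p-values stand in the authors' deposited comparison tables. The 27 cells of the deposited signal table that held dates were decoded, and 836 probe sets with several symbols and 3 with none were left out. The members and gene lists were chosen with earlier results of these data known. One limma model (limma 3.58.1, R 4.3.3) with eBayes was fitted to 9 arrays and 21367 probe sets, with Benjamini-Hochberg adjustment per comparison, and was checked on simulated data. Probe signals have no depth, and 3 arrays per group limit the precision. Named genes were the members, all TRAPP subunits, 5 genes on each side, the 6 highest and 6 lowest correlations and the 6 highest correlations of deviations per member, the 10 widest gaps, and up to 3 genes per list with the smallest p; predicted genes were not named by likeness or gap. Correlations and gaps used a level of at least 6.938, the median, and an SD of at least 0.2. Promoter sequences, gene order and names came from RefSeq (GRCm38.p6). Alternatives were the series matrix values, all probe sets, a filter on dim probe sets, quantile normalization, median centring, trend and robust eBayes, array weights, only the groups compared, a replicate block, each array left out in turn, and the 3 arrays of higher cortex signal left out.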

Additional observations from a re-analysis of the deposited data

How the results depend on the processing

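The rule that chose both genes fixes the sign of their differences from vehicle when arrays are left out, so only the sizes are given. With one array left out at a time they ran from 1.10 to 1.77 at 1% and from 0.73 to 1.40 at 10% for AI506816, and from 0.79 to 1.08 and 0.71 to 1.00 for Trappc11. The AI506816 difference between doses ran from -0.52 to -0.22 and that of Trappc11 from -0.20 to 0.03, reversing to 0.022 without 1% replicate 1 and to 0.028 without 10% replicate 3. Leave-one-out counts ran from 0 to 7 (1% against vehicle), 0 to 12 (10% against vehicle) and 0 to 2 (between doses) for adjusted calls, from 566 to 1165, 684 to 1530 and 571 to 954 for unadjusted calls, from 0 to 0, 0 to 3 and 0 to 1 for TRAPP subunits, and from 300 to 855 for probe sets separated from vehicle at both doses. The highest counts of adjusted calls against vehicle and of separated probe sets came without vehicle replicate 3, and 1530 came without 10% replicate 3. A filter on dim probe sets, which tests fewer genes, gave 317, 417 and 238 unadjusted calls and 117 separated probe sets. Array weights gave 1172 unadjusted calls at 1%; the cause was not tested. Without the 3 arrays of higher cortex signal there were 11 and 12 adjusted calls against vehicle at 1% and 10%, 1241 unadjusted calls at 1%, 0 TRAPP subunits at 10% or between doses, and 1663 separated probe sets, on 2 arrays per group. The TRAPP count between doses was also 0 with only the 2 groups compared and 0 with the replicate block. Same-numbered arrays showed no strong shared deviation, with correlations from -0.161 to 0.279, which cannot settle whether the numbers pair the samples. The replicate block cannot move a difference of means in this balanced design. With it the SE of the difference between doses was 0.311 for AI506816 and 0.194 for Trappc11, against 0.306 and 0.204. For AI506816 that SE was 0.204 with only the 2 groups compared and 0.202 without vehicle replicate 2 (unadjusted p 0.0986 and 0.0918 from limma), and the adjusted p over all alternatives was 0.958 to 1.0. Signal over background limits dim probe sets, since no detection call was used.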
